A study of Homo sapiens with 6 samples.

Results

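The 10 junction genes described here are DSG2, DSC2, DSP, JUP, PKP2, PKP3 and PKP4 of the desmosome, the desmosome-associated membrane protein gene PERP, the E-cadherin gene CDH1 and the adhesion molecule gene EPCAM. They were chosen by symbol and not by a rule on their measured values, though with earlier results of these data known. They are 10 of the 59715 gene IDs in the count table, and all 10 were among the 14543 genes with enough counts to test. The cells are HCT116, a long-established line from a human colorectal carcinoma, and their poly(A)-selected RNA was sequenced in 3 libraries labelled MLL4KO (MLL4 knockout) and 3 libraries labelled MLL4WT (MLL4 wild type). Cells of both genotypes came from one donating laboratory and were grown in DMEM with 10% serum, with no other treatment stated. The labels give neither the clone nor the deletion behind MLL4KO, and they do not say whether replicate libraries stand for separate cultures, so p-values measure the spread between these libraries, which may be technical.

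Epithelial cells hold each other through adherens junctions and desmosomes. In an adherens junction E-cadherin reaches across the gap between cells and is tied by catenins to actin, while in a desmosome the cadherins of the desmoglein and desmocollin families are tied by plakoglobin, plakophilins and desmoplakin to keratin filaments. In intestinal epithelium, DSG2 and DSC2 are the main desmosomal cadherins, and EPCAM, an adhesion molecule of the epithelial surface, associates with claudins. MLL4, whose gene symbol is KMT2D, is a histone methyltransferase that acts at enhancers.

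Library totals lay between 6829400 and 19736751 counts, and MLL4WT replicate 1 was the shallowest. MLL4WT replicate 1 differed from the other MLL4WT libraries by a chi-square of 7.58 to 7.61 per degree of freedom, against 1.8 to 2.48 for the other pairs within a genotype. It was alone on 1 of 3 flow cell codes found in the column names. Its deviation from the other MLL4WT libraries followed gene GC content (Spearman rho 0.356 across 14402 genes, which are not independent replicates), so the values of members are also given without it where they move. KMT2D had 230, 243 and 225 CPM (counts scaled to library size, with TMM factors) in the MLL4KO libraries, against 240, 231 and 234 CPM in the MLL4WT libraries (edgeR adjusted p = 0.832), and since the deleted stretch is not given, this whole-gene count does not check the labels. KMT2B, which has also carried the name MLL4, averaged 63.2 ± 3.45 CPM in MLL4KO and 90.5 ± 3.44 CPM in MLL4WT (SD, n = 3 each; log2 fold change -0.51 ± 0.06 SE, edgeR adjusted p = 2.33e-05).

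Of the 10 junction genes, PKP3, EPCAM, PERP, DSC2 and DSG2 fell in MLL4KO cells, and JUP, DSP, PKP2, PKP4 and CDH1 did not pass the test (edgeR quasi-likelihood test, adjusted p under 0.05 over all tested genes). The falls differed in size: PKP3 was lower by about 2.05-fold, EPCAM by 1.43-fold, PERP by 1.26-fold, DSC2 by 1.20-fold and DSG2 by 1.1-fold. Across all tested genes 3136 fell, 21.6% of them, and 2885 rose, 19.8% of them. The count of 5 that fell among 10 stands beside that 21.6%, and the count of 0 that rose beside the 19.8%; 0 members rose at an unadjusted p under 0.05, by DESeq2 or by limma-voom. The median log2 fold change was -0.15 over the 10 genes and -0.00 over all tested genes. In 5 members all 3 MLL4KO libraries lay below all 3 MLL4WT libraries, an order found in 26.6% of tested genes, in the other 5 the groups overlapped, and in 0 did MLL4KO lie wholly above, against 25.9% of tested genes. In bulk RNA a change in the number of cells that express a gene and a change in RNA per cell cannot be told apart.

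PKP3, EPCAM and PERP kept their call in all 16 alternative settings, and DSG2 and DSC2 did not. With libraries scaled by total counts or by the upper quartile, 3 members fell and PKP4 was called as risen, and the share of called genes that rose was 60.8% and 59.0%, against 47.9% with TMM. Leaving out MLL4KO replicate 1 or MLL4KO replicate 3 also left 3 that fell, whereas leaving out MLL4WT replicate 1 gave 6 that fell and 1 that rose. On the 2 flow cell codes that hold both genotypes, 7 members were lower in MLL4KO on both and JUP was higher on both. PKP4 and CDH1 differed in sign between the codes. Some differences were near 0, such as log2 -0.0132 for PKP2 between MLL4KO replicate 1 and MLL4WT replicate 3. These signs come from the same libraries as the calls. The share of all tested genes with such signs was not counted.

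**Figure D1:**
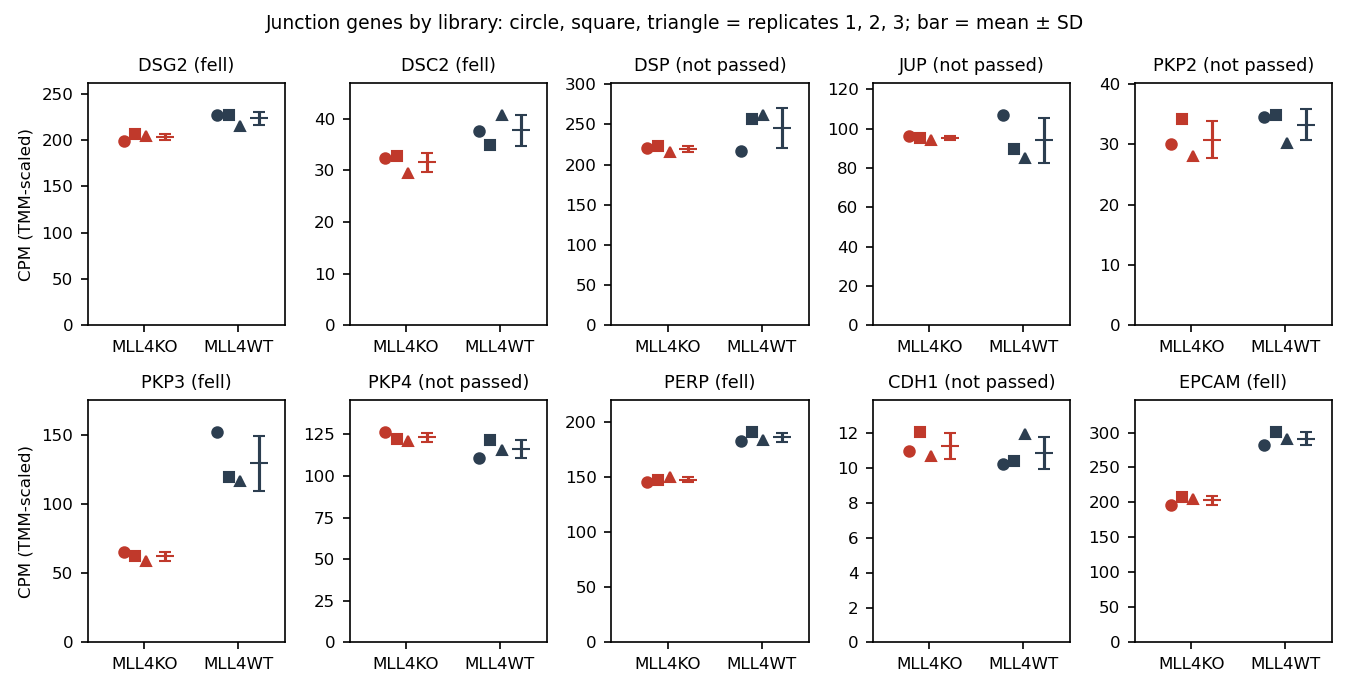
CPM (TMM-scaled, vertical axes starting at 0) of each junction gene in the 3 MLL4KO libraries (red) and the 3 MLL4WT libraries (dark blue); bars give the mean ± SD. In DSG2, DSC2, PKP3, PERP and EPCAM every MLL4KO point lies below every MLL4WT point, and PKP3 shows the widest gap, with 58.8 to 65.3 CPM in MLL4KO and 117 to 152 CPM in MLL4WT.

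**Figure D2:**
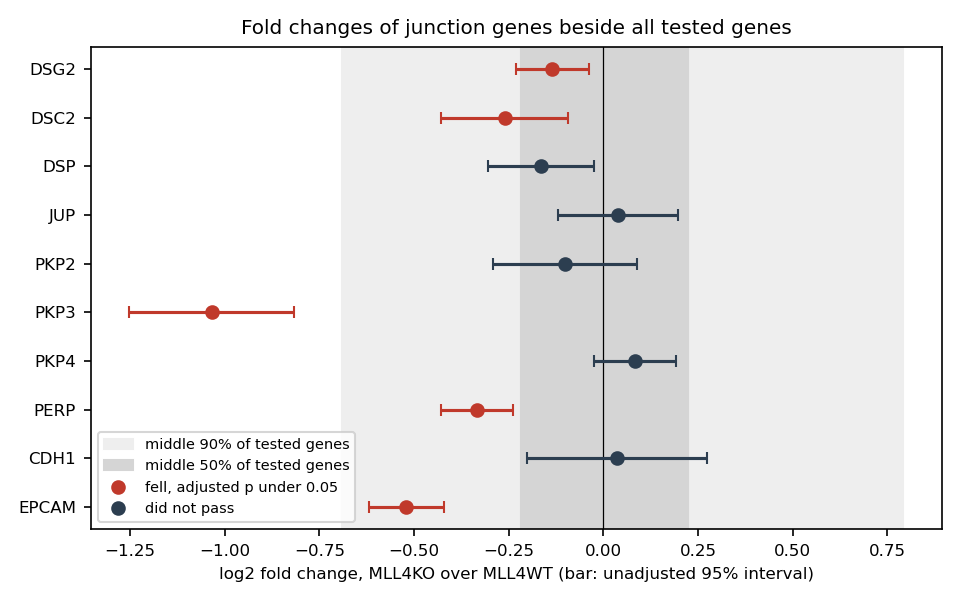
Log2 fold change of MLL4KO over MLL4WT for each junction gene with its unadjusted 95% interval (horizontal axis), over shaded bands for the middle 50% (-0.22 to 0.22) and the middle 90% (-0.69 to 0.79) of all tested genes. PKP3 is the member outside the wider band.

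The cadherins that span the desmosome are encoded by a cluster of genes on chromosome 18. DSG2 (ENSG00000046604, GRCh38 chr18:31498043-31549008, plus strand), the desmoglein of simple epithelia, had 199, 206 and 204 CPM in MLL4KO replicates 1, 2 and 3, against 227, 227 and 215 CPM in MLL4WT replicates 1, 2 and 3. The groups did not overlap, though the gap between the nearest libraries was small. DSG2 fell by 0.14 ± 0.04 on the log2 scale (SE; edgeR adjusted p = 0.0274). The call was lost when libraries were scaled by total counts (log2 -0.07, adjusted p = 0.197), by the upper quartile (-0.08, adjusted p = 0.151), with no filter on low counts (-0.12, adjusted p = 0.0921), and without MLL4WT replicate 2 or any 1 of the MLL4KO libraries (edgeR adjusted p 0.0828 to 0.137).

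DSC2 (ENSG00000134755, chr18:31058840-31102522, minus strand), the desmocollin of simple epithelia, had 32.3, 32.8 and 29.4 CPM in MLL4KO, against 37.6, 34.8 and 40.8 CPM in MLL4WT. Every MLL4KO library was below every MLL4WT library. DSC2 fell by 0.26 ± 0.08 on the log2 scale (SE; edgeR adjusted p = 0.0172). That call was lost with total counts (-0.20, adjusted p = 0.0606), the upper quartile (-0.21, adjusted p = 0.0508) and DESeq2 (-0.26, adjusted p = 0.0613), and when MLL4WT replicate 3 or either of MLL4KO replicates 1 and 3 was left out (edgeR adjusted p 0.0532 to 0.121).

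The list of other desmosome genes held 10 genes, of which 4 were tested, 1 rose and 1 fell. Counts in this and the later related lists stand beside the 19.8% of all tested genes that rose and the 21.6% that fell. DSC3, a desmocollin better known from stratified epithelia and the next tested gene beside DSC2, had 4.97, 6.22 and 6.18 CPM in MLL4KO, against 17.7, 13.6 and 14.4 CPM in MLL4WT. It fell by 1.37 ± 0.14 on the log2 scale (SE; edgeR adjusted p = 1.06e-05), with no overlap between groups. KAZN, the gene of kazrin, a protein that binds periplakin, rose to 31.3 ± 0.04 CPM in MLL4KO, against 21.4 ± 2.85 CPM in MLL4WT (edgeR adjusted p = 0.000433). PPL and EVPL, which encode the plakins periplakin and envoplakin, did not pass (edgeR adjusted p = 0.562 and 0.531). DSG1, DSG3, DSG4, DSC1, PKP1 and CDSN had too few counts to test, with at most 10 counts each over the 6 libraries. As a share of the per-length level of DSG2, DSC2 and DSC3 together, DSG2 made up 90.8 ± 0.29% in MLL4KO and 87.4 ± 1.02% in MLL4WT. DSC3 made up 2.27 ± 0.24% in MLL4KO and 5.22 ± 0.65% in MLL4WT (SD, n = 3 each). These shares are parts of a common total, so the share of DSG2 was higher in MLL4KO although its own level fell.

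Promoter windows are shown for the genes of the desmosome that fell and were matched in the promoter table used here, DSG2, DSC2 and PERP, and for DSP, which did not pass, so that their sequence can be read beside their values. Each runs from 250 bases before to 50 bases after a RefSeq start on GRCh38.p14, and is written 5′ to 3′ on the gene's strand. The windows are chr18:31497927-31498226 on the plus strand for DSG2, chr18:31102372-31102671 on the minus strand for the upstream start of DSC2, chr6:138107370-138107669 on the minus strand for PERP and chr6:7541421-7541720 on the plus strand for DSP. Capitals mark the E-box CACCTG or CAGGTG, the letters that the E-cadherin repressors of the Snail and ZEB families bind.
DSG2: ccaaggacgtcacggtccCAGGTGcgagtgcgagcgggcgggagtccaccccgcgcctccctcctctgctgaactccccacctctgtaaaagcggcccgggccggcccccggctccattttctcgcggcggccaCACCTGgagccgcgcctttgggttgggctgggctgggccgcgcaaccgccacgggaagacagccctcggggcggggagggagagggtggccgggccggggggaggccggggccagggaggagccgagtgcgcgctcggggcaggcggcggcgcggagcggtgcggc
DSC2: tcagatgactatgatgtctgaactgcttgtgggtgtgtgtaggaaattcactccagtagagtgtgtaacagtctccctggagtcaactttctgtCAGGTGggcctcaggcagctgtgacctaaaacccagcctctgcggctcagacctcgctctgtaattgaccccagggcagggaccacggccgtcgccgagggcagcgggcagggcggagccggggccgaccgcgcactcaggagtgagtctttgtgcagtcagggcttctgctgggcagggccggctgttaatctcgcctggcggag
PERP: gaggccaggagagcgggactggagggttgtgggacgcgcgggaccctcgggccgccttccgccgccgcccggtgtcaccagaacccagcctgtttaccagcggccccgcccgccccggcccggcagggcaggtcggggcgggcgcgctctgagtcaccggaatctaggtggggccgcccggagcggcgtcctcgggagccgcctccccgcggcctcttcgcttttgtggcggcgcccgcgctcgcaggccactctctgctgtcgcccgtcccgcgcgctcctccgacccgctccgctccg
DSP: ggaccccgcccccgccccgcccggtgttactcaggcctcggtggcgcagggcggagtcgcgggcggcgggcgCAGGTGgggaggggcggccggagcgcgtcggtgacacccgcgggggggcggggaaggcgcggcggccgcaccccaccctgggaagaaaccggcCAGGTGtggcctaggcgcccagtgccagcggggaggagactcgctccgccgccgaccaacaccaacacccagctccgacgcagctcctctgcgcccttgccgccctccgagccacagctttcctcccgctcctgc
Counted from the start, E-boxes began at -232 and -116 in DSG2, at -156 in DSC2 and at -178 and -85 in DSP, and the window of PERP held none. On either strand 20.59% of the 35116 promoter windows of the table hold this E-box. An AP-1 motif (TGANTCA on either strand, in 7.71% of windows) lay at -101 in PERP and in none of the other members' windows. The motif of grainyhead-like factors (AACCNGTT or AACNGGTT, in 1.73% of windows) lay in none of them. GC boxes (GGGCGG or CCGCCC, in 44.95% of windows) numbered 2 in DSG2, 1 in this window of DSC2, 5 in PERP and 8 in DSP. GC content was 76.7% in DSG2, 60.7% in DSC2, 77.0% in PERP and 77.0% in DSP, beside a median of 58.7% over all windows. A second window of DSC2, chr18:31101211-31101510 on the minus strand, held 0 E-boxes and 2 GC boxes. JUP and PKP4 were also matched, and 1 of the JUP windows held E-boxes at -54 and -43. Promoters of PKP2, PKP3, CDH1 and EPCAM were not analysed here.

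On the inner side of the desmosome, DSP encodes desmoplakin, the plakin that links the plaque to keratin filaments. DSP (ENSG00000096696, chr6:7541575-7586717, plus strand) had 221, 223 and 216 CPM in MLL4KO replicates 1 to 3, against 216.5, 257 and 262 CPM in MLL4WT replicates 1 to 3. MLL4WT replicate 1 lay within the MLL4KO range, and the other MLL4WT libraries lay above it. The difference did not pass (log2 -0.17 ± 0.06 SE, unadjusted 95% interval -0.31 to -0.02, edgeR adjusted p = 0.0583). Without MLL4WT replicate 1 the difference was -0.23 and passed (edgeR adjusted p = 1.18e-07). It also passed with a flow cell term (-0.24, adjusted p = 3.14e-08) and with GC and length trends removed (-0.23, adjusted p = 0.00466). MLL4WT replicate 1 is alone on its flow cell code, so the flow cell term fits that library fully. That fit is therefore not separate from leaving the library out.

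JUP (ENSG00000173801, chr17:41754604-41786931, minus strand) encodes plakoglobin, the catenin that desmosomes and adherens junctions share. Its level was 96.2, 95.4 and 94.4 CPM in MLL4KO, against 107, 89.8 and 85.1 CPM in MLL4WT. The MLL4KO libraries were close together and lay inside the MLL4WT range, which MLL4WT replicate 1 widened at the upper end. JUP did not pass (log2 0.04 ± 0.07 SE, unadjusted 95% interval -0.12 to 0.20, edgeR adjusted p = 0.699). Without MLL4WT replicate 1 JUP passed as risen (log2 0.13, edgeR adjusted p = 0.0106). The flow cell term, which fits that library fully, gave nearly the same result (0.12, adjusted p = 0.0164). JUP also passed as risen with GC and length trends removed (0.14, adjusted p = 0.0413). Without MLL4WT replicate 3 the sign turned (-0.02). The longest transcript of JUP is 61.5% GC and that of DSP 47.9%. MLL4WT replicate 1 stood at 1.23 times the mean of the other MLL4WT libraries for JUP and at 0.834 times for DSP. Members with a lower GC content than DSP stood at 0.936 (PKP4) to 1.06 (PKP2) times. The part of GC content in these ratios was not tested.

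The plakophilins, armadillo-repeat proteins that hold cadherin tails and desmoplakin together in the plaque, did not move alike. PKP3 (ENSG00000184363, chr11:392614-404908, plus strand), a plakophilin of most epithelial desmosomes, had 65.3, 62.9 and 58.8 CPM in MLL4KO, against 152, 119 and 117 CPM in MLL4WT. The highest MLL4KO library was far below the lowest MLL4WT library. PKP3 fell by 1.03 ± 0.10 on the log2 scale (SE; edgeR adjusted p = 3.23e-05), and 2.46% of tested genes had a lower fold change. MLL4WT replicate 1 stood at 1.29 times the mean of the other MLL4WT libraries for PKP3, whose longest transcript is 66.8% GC. Without that library the log2 fold change was -0.91.

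PKP2 (ENSG00000057294, chr12:32790745-32896840, minus strand), the plakophilin of simple epithelia and heart, had 30.0, 34.1 and 28.1 CPM in MLL4KO, against 34.5, 34.9 and 30.3 CPM in MLL4WT, with overlapping groups. It did not pass (log2 -0.10 ± 0.09 SE, unadjusted 95% interval -0.29 to 0.09, edgeR adjusted p = 0.381). PKP4 (ENSG00000144283, chr2:158456964-158682879, plus strand), a relative of p120-catenin found at adherens junctions and desmosomes, had 126, 122 and 121 CPM in MLL4KO, against 111, 122 and 115 CPM in MLL4WT. Those groups met at MLL4WT replicate 2, and PKP4 did not pass (log2 0.08 ± 0.05 SE, interval -0.03 to 0.19, edgeR adjusted p = 0.208). It passed as risen with total counts (0.15, adjusted p = 0.0293) and with the upper quartile (0.14, adjusted p = 0.0410).

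Set per length, as CPM per kilobase of annotated exon, the mix of the plakophilins differed between genotypes. PKP3 made up 48.7 ± 0.74% of the level of PKP2, PKP3 and PKP4 together in MLL4KO and 66.7 ± 3.65% in MLL4WT (SD, n = 3 each). PKP4 made up 38.4 ± 1.04% in MLL4KO and 24.0 ± 3.05% in MLL4WT, and PKP2 made up 12.9 ± 1.06% in MLL4KO and 9.26 ± 0.73% in MLL4WT. In each of the 3 genes the shares of the genotypes did not overlap. The shares are parts of a common total, so a lower PKP3 level by itself raises the shares of PKP2 and PKP4. The levels of PKP2 and PKP4 did not pass the test. With the longest transcript as the length, the share of PKP3 was 43.8% in MLL4KO and 62.2% in MLL4WT.

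**Figure D3:**
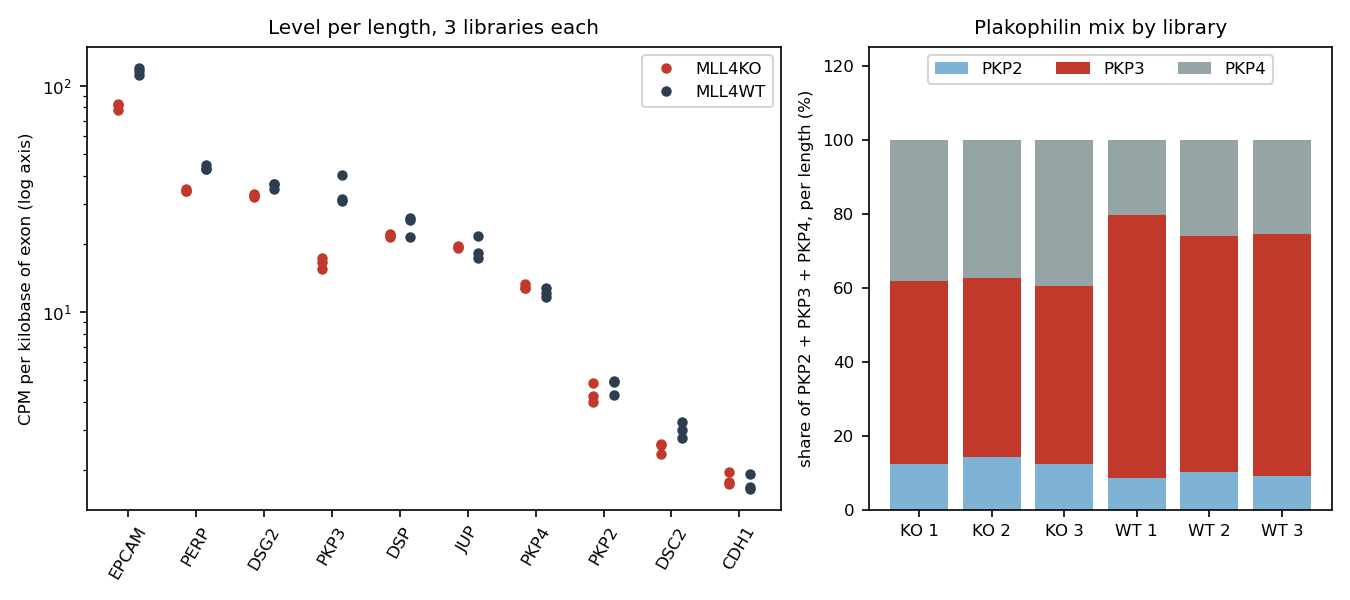
Left, level of each junction gene per length (CPM per kilobase of exon, log axis) in the 3 MLL4KO (red) and 3 MLL4WT libraries (dark blue), ordered by the MLL4WT mean; right, share in percent of PKP2, PKP3 and PKP4 in their summed level per length in each library. EPCAM is highest in both genotypes, CDH1 lowest, and PKP3 holds 48.2 to 49.6% of the plakophilin level in MLL4KO libraries and 64.0 to 70.8% in MLL4WT libraries.

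Ordered by level per length, EPCAM came first in both genotypes, with 80.7 ± 2.46 CPM per kilobase of exon in MLL4KO and 116 ± 3.82 in MLL4WT (SD, n = 3 each). PERP and DSG2 followed in both, at 34.5 and 32.8 CPM per kilobase in MLL4KO and at 43.4 and 36.1 in MLL4WT. PKP3 ranked 6 in MLL4KO, at 16.5 ± 0.86 CPM per kilobase, and 4 in MLL4WT, at 34.2 ± 5.23, where its range overlapped that of DSG2. DSP averaged 21.8 CPM per kilobase in MLL4KO and 24.3 in MLL4WT, and JUP averaged 19.3 in MLL4KO and 19.0 in MLL4WT. Their ranges overlapped in MLL4WT. PKP4 averaged 12.9 CPM per kilobase in MLL4KO and 12.2 in MLL4WT, and PKP2 averaged 4.37 in MLL4KO and 4.72 in MLL4WT. DSC2 averaged 2.52 ± 0.14 in MLL4KO and 3.02 ± 0.24 in MLL4WT. CDH1 was last in both, with 1.82 ± 0.12 CPM per kilobase in MLL4KO and 1.76 ± 0.15 in MLL4WT, and no other neighbours in either order had overlapping ranges. With the longest transcript as the length, PKP3 ranked 6 in MLL4KO and 2 in MLL4WT. Summed over the 10 genes, CPM lay between 1118 and 1144 in MLL4KO and between 1353 and 1388 in MLL4WT.

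PERP encodes a small membrane protein of the PMP22 family that is found in desmosomes and is a transcriptional target of p53 and p63. PERP (ENSG00000112378, chr6:138088505-138107511, minus strand) had 146, 147 and 150.3 CPM in MLL4KO, against 183, 191 and 184 CPM in MLL4WT. The libraries of each genotype were close together and the groups were well apart. PERP fell by 0.33 ± 0.04 on the log2 scale (SE; edgeR adjusted p = 8.63e-05). Of its 5 listed relatives in the PMP22 family 4 were tested, and 1 rose and 3 fell. EMP2 rose by 0.35 ± 0.07 on the log2 scale (SE; edgeR adjusted p = 0.00210), with 74.4 ± 2.86 CPM in MLL4KO and 59.3 ± 6.84 CPM in MLL4WT. EMP3 fell to 35.4 ± 2.61 CPM in MLL4KO, against 60.7 ± 8.47 CPM in MLL4WT (edgeR adjusted p = 8.08e-05), and EMP1 fell to 4.72 ± 0.52 CPM in MLL4KO, against 8.46 ± 0.81 CPM in MLL4WT (edgeR adjusted p = 0.000566).

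At the adherens junction, CDH1 (ENSG00000039068, chr16:68737225-68835548, plus strand) had 10.99, 12.1 and 10.7 CPM in MLL4KO, against 10.3, 10.4 and 11.9 CPM in MLL4WT. The groups overlapped, and the highest value was in MLL4KO and the lowest in MLL4WT. CDH1 did not pass (log2 0.04 ± 0.11 SE, unadjusted 95% interval -0.20 to 0.27, edgeR adjusted p = 0.864), and it rested on the fewest counts of the members, 1007 over the 6 libraries. CDH3, the P-cadherin gene next to CDH1, had 49.96 ± 1.14 CPM in MLL4KO and 53.3 ± 3.24 CPM in MLL4WT and did not pass either (edgeR adjusted p = 0.294). Per length, CDH1 made up 18.5 ± 1.26% of the level of CDH1 and CDH3 together in MLL4KO and 17.1 ± 1.59% in MLL4WT. The list of 23 other cadherins had 4 tested genes, of which CDH22 rose, to 5.38 ± 0.60 CPM in MLL4KO, against 2.09 ± 0.30 CPM in MLL4WT (edgeR adjusted p = 0.000106), and the other 3 did not pass. The number of these cadherins that rose was 2 without MLL4KO replicate 1, with total counts or the upper quartile and with GC and length trends removed, and 0 among genes with at least 5 CPM in 3 libraries.

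Behind the cadherin, 4 of 17 tested catenins and adaptors rose and 7 fell, out of a list of 21, with a median log2 fold change of -0.04. VCL, the gene of vinculin, which binds alpha-catenin and actin, fell to 126 ± 0.65 CPM in MLL4KO, against 311 ± 7.37 CPM in MLL4WT (log2 -1.30 ± 0.04 SE, edgeR adjusted p = 1.12e-09). CTNNB1, the beta-catenin gene, had 302, 302 and 301 CPM in MLL4KO, against 416, 438 and 444 CPM in MLL4WT, with no overlap. It fell by 0.52 ± 0.04 on the log2 scale (SE; edgeR adjusted p = 2.27e-06). CTNNA1, the alpha-catenin gene, fell by 0.19 ± 0.04 (edgeR adjusted p = 0.00454), and CTNND1, the gene of p120-catenin, rose by 0.12 ± 0.04 (edgeR adjusted p = 0.0413). EPB41L5, a FERM-domain protein gene linked to E-cadherin uptake, rose to 30.7 ± 1.02 CPM in MLL4KO, against 16.5 ± 2.91 CPM in MLL4WT (edgeR adjusted p = 2.86e-05). The nectin gene NECTIN1 rose by 0.27 ± 0.07 on the log2 scale (edgeR adjusted p = 0.0119), with overlapping groups. The number that rose was 2 or fewer when any 1 library other than MLL4WT replicate 1 was left out, and the number that fell stayed at 6 or 7.

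Of 13 listed repressors of E-cadherin transcription 8 were tested, and 1 rose. ZEB1, a zinc-finger repressor of CDH1, had 14.2, 16.2 and 14.7 CPM in MLL4KO, against 10.7, 10.6 and 10.5 CPM in MLL4WT, with no overlap. It rose by 0.51 ± 0.10 on the log2 scale (SE; edgeR adjusted p = 0.00137). SNAI1 (log2 -0.30 ± 0.12, edgeR adjusted p = 0.0631) and SNAI2 (log2 -0.48 ± 0.20, adjusted p = 0.0748), both Snail-family repressors, did not pass. In both, every MLL4KO library lay below every MLL4WT library. In their relative SNAI3, which did not pass either, every MLL4KO library lay above (edgeR adjusted p = 0.0937). ZEB2 had 9 counts in all and was not tested. The number that rose was 2 without MLL4WT replicate 1, with total counts, the upper quartile or a flow cell term, and with GC and length trends removed. With no filter on low counts and with limma-voom 1 repressor fell.

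EPCAM (ENSG00000119888, chr2:47345158-47387601, plus strand) had 196, 208 and 206 CPM in MLL4KO replicates 1, 2 and 3, against 282, 301 and 291 CPM in MLL4WT replicates 1, 2 and 3. The groups were far apart relative to the spread within each. EPCAM fell by 0.52 ± 0.05 on the log2 scale (SE; edgeR adjusted p = 3.77e-06), and 8.33% of tested genes had a lower fold change. Of 10 listed partners and tetraspanins 8 were tested, and 2 rose and 4 fell. The number that fell was 3 in most alternatives and 4 in the others, and the number that rose was 2 or 3. CLDN7, a claudin that binds EPCAM, fell to 33.3 ± 2.06 CPM in MLL4KO, against 76.3 ± 3.58 CPM in MLL4WT (log2 -1.19 ± 0.06 SE, edgeR adjusted p = 6.70e-08). The tetraspanin gene CD151 fell to 120 ± 0.43 CPM in MLL4KO, against 186 ± 4.19 CPM in MLL4WT (edgeR adjusted p = 5.64e-07). The tetraspanin genes CD9 and CD82 rose, by 0.31 ± 0.05 and 0.76 ± 0.14 on the log2 scale (edgeR adjusted p = 0.000253 and 0.00120).

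In a list of 20 genes linked to the processing of cadherins and EPCAM, not all of them cutting enzymes, 5 of 18 tested genes rose and 8 fell. With GC and length trends removed 3 rose. The number that fell was 7 in most alternatives and at most 9. MMP14, a membrane-bound metalloproteinase gene, rose to 26.5 ± 0.79 CPM in MLL4KO, against 18.7 ± 0.56 CPM in MLL4WT (edgeR adjusted p = 0.000170). ST14, which encodes the protease matriptase, known to cut EPCAM, fell to 113 ± 5.12 CPM in MLL4KO, against 166 ± 5.74 CPM in MLL4WT (edgeR adjusted p = 5.85e-06). ADAM9, a disintegrin metalloproteinase gene, fell by 0.76 ± 0.08 on the log2 scale (edgeR adjusted p = 2.16e-05).

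The intermediate filament genes that desmosomes can anchor mostly fell: of 14 listed, 9 were tested, 1 rose and 7 fell, with a median log2 fold change of -0.91. KRT80, a type II keratin gene, fell to 10.8 ± 0.98 CPM in MLL4KO, against 37.8 ± 1.74 CPM in MLL4WT (edgeR adjusted p = 1.88e-08). VIM, the vimentin gene, whose product is a mesenchymal filament protein and not a keratin, fell by 4.41 ± 0.13 on the log2 scale (SE; edgeR adjusted p = 2.36e-08). KRT23 rose (edgeR adjusted p = 0.000262) at a low level, with 1.4, 2.2 and 1.6 CPM in MLL4KO, against 0.297, 0.137 and 0 CPM in MLL4WT. Among genes with at least 5 CPM in 3 libraries, where KRT23 is not tested, 0 of the list rose and 5 fell. Named as markers of the epithelium and after their values were seen, KRT8 had 435, 434 and 444 CPM in MLL4KO, against 703, 726 and 710.4 CPM in MLL4WT, and its partner KRT18 had 224, 223.5 and 226 CPM in MLL4KO, against 357, 363 and 357 CPM in MLL4WT. Both fell without overlap, by 0.70 and 0.68 on the log2 scale (edgeR adjusted p = 1.35e-07 and 1.56e-07), and since both have many processed pseudogenes their counts are uncertain.

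**Figure D4:**
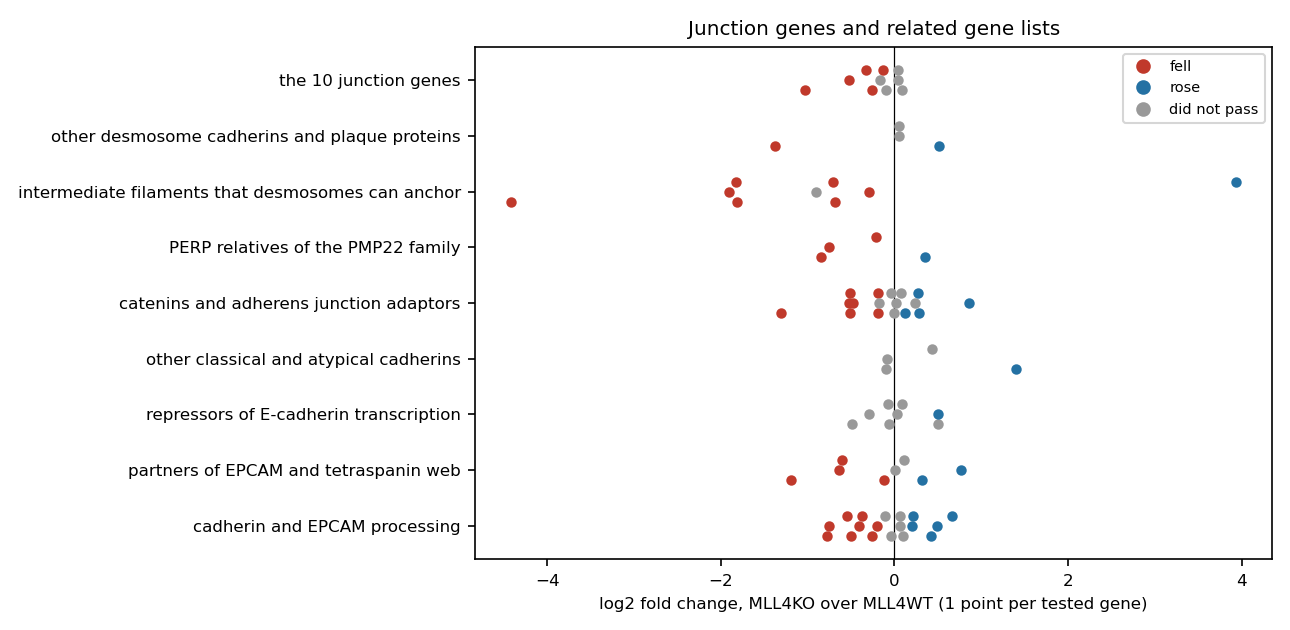
Log2 fold change of MLL4KO over MLL4WT (horizontal axis) for every tested gene of the junction genes and of 8 related lists, 1 point a gene, red for genes that fell, blue for those that rose and grey for those that did not pass; the vertical offset within a list has no meaning. Falls outnumber rises most among intermediate filaments (7 against 1), while in the repressors of E-cadherin 7 of 8 tested genes did not pass.

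Markers of colon epithelium, a list of 10 that includes EPCAM and CDH1, summed to between 1087 and 1110.2 CPM in MLL4KO and between 1622 and 1682 CPM in MLL4WT, and of 7 tested 5 fell and 2 did not pass. KRT8, KRT18 and EPCAM had the highest levels in this list in both genotypes and weigh most in its sum. The 2 that did not pass were CDH1 and CDX2. CDX2 averaged 30.5 ± 1.94 CPM in MLL4KO and 28.7 ± 2.25 CPM in MLL4WT (edgeR adjusted p = 0.341). The epithelial markers CDX1 and TFF3 had 0 counts in every library. TFF3 is a marker of goblet cells and CDX1 a transcription factor of the intestinal lineage. Markers of other cell types were low: 8 fibroblast markers summed to 31.6 to 35.6 CPM in MLL4KO and to 30.0 to 32.3 CPM in MLL4WT, with POSTN at 0. Endothelial markers, 6 in all, summed to 3.63 to 4.01 CPM in MLL4KO and to 1.93 to 2.40 CPM in MLL4WT, and 7 leukocyte markers to 3.94 to 5.02 CPM in MLL4KO and to 2.67 to 6.78 CPM in MLL4WT. The part of these levels in the junction gene results was not tested.

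Each junction gene was also set beside its 5 nearest tested genes on each side. Around PKP3 at the end of the short arm of chromosome 11, 8 of 10 neighbours fell, with a median of -0.55 on the log2 scale and a range of -0.79 to 0.03, and PKP3 was lower than all 10. IFITM3, an interferon-induced membrane protein gene, fell by 0.79 and HRAS, the small GTPase gene, by 0.61 on the log2 scale (edgeR adjusted p = 1.08e-05 and 3.95e-06). Without MLL4WT replicate 1, 8 of the neighbours of PKP3 fell, and with GC and length trends removed 7 did. Around EPCAM 1 of 10 neighbours rose and 2 fell, with a median of 0.07. Around PERP 2 neighbours rose and 1 fell (median 0.11), and around CDH1, which did not pass, 5 of 10 fell (median -0.21). DSG2, DSC2 and DSC3, which are next to each other among tested genes, all fell. Of the other genes near them B4GALT6 and TRAPPC8 rose. Both calls were lost with GC and length trends removed (edgeR adjusted p = 0.0736 and 0.0622). Without MLL4WT replicate 1 both were kept (edgeR adjusted p = 0.0214 and 0.00055). The remaining members had neighbours with medians between -0.14 for JUP and 0.12 for PKP4. Whether these stretches bear on the members' changes was not tested.

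**Figure D5:**
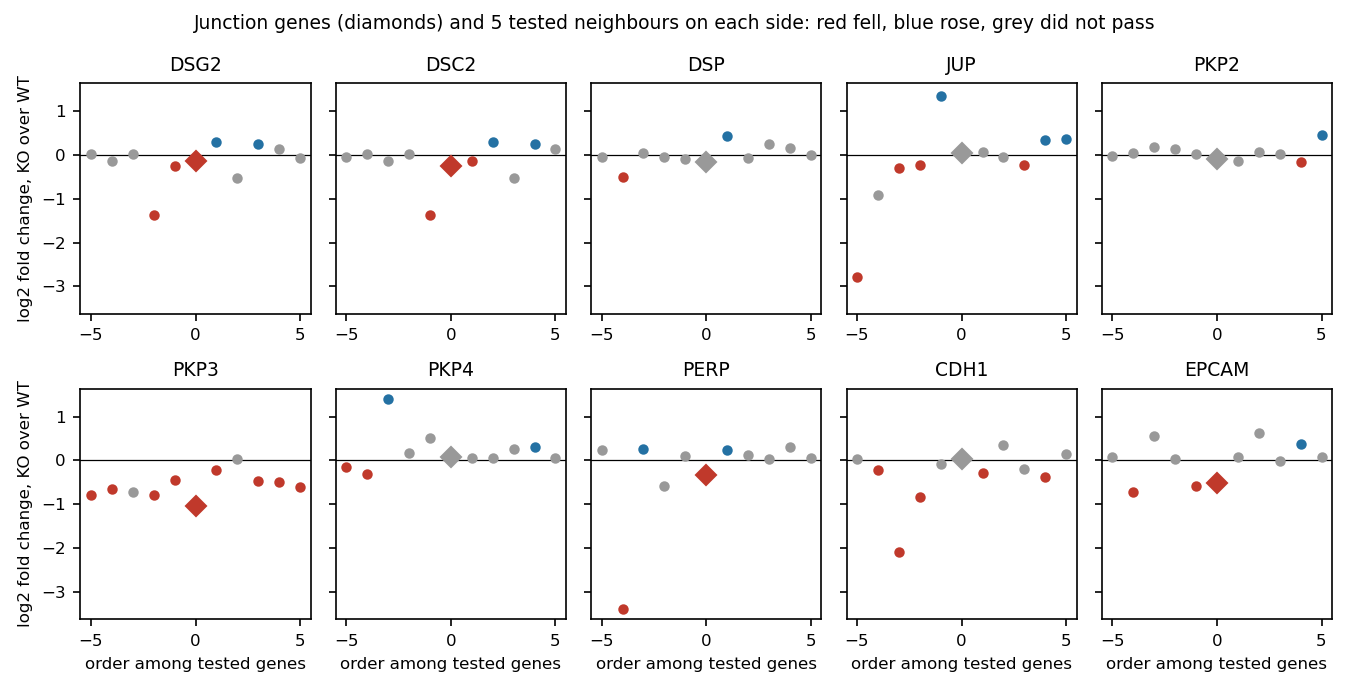
Log2 fold change of MLL4KO over MLL4WT (vertical axis) for each junction gene (diamond, position 0) and its 5 nearest tested genes on each side in genome order (horizontal axis); red fell, blue rose, grey did not pass. Around PKP3 8 of the 10 neighbours are red. EPCAM and PERP stand below most of their neighbours, as do DSG2, DSC2, DSP and PKP2.

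Counts in genes that overlap the members were few. Such genes on GENCODE release 29 had at most 8 counts in total, against 1007 to 21765 for the members, and the pseudogene PKP4P1 had 0. The library kit is not stated to keep strand, so reads of DSG2 and DSG2-AS1, DSC2 and DSCAS, and PKP4 and PKP4-AS1 cannot be told apart.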

How the data were processed

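RNA of 3 MLL4KO and 3 MLL4WT HCT116 libraries was isolated on columns, poly(A)-selected and sequenced, per the labels' protocols. The authors deposited expected counts, estimated per gene and not normalised, which are whole numbers for 59715 Ensembl IDs, per the file headers. Salmon 1.8.0, DESeq2 1.44.0 and hg38 are named in the submitters' processing notes without role or order, and the sources used here do not give the annotation. How that step shared reads between similar genes could change their counts. Group and replicate number came from the sample titles.

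Symbols were matched for 55764 IDs, and 56227 IDs had coordinates and exon lengths in GENCODE release 29 (GRCh38). The filterByExpr function of edgeR 4.0.16 (R 4.3.3) kept 14543 genes, which hold 99.9% of counts. Scaling was by TMM. The robust quasi-likelihood test of edgeR set MLL4KO against MLL4WT, with Benjamini-Hochberg adjustment over all tested genes; "rose" and "fell" mean an adjusted p under 0.05. The biological coefficient of variation was 5.62%, with 4 residual degrees of freedom. Standard errors come from the quasi-likelihood F statistic. In the shallowest library, 3 counts equal 0.446 CPM, so changes near that level were not detectable there. Promoter windows came from a table of RefSeq starts (GRCh38.p14), which was matched for 6 of the 10 members. Alternatives were other scalings, filters, DESeq2 1.42.0, limma-voom (limma 3.58.1), a replicate block, a flow cell term, removal of GC and length trends (lowess span 0.3) and leaving out each library. The flow cell term fits MLL4WT replicate 1 fully, since this library is alone on its code. That fit and the fit without the library are therefore not separate checks. The test method was also run on simulated data.

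The members and the related lists were chosen with earlier results of these data known. Named were all members, KMT2D, KMT2B and a fixed set of catenins and E-cadherin repressors. In each related list, at most 2 called genes in each direction with the smallest adjusted p were named too. CDH3, PPL, EVPL, SNAI3, KRT8, KRT18, CDX2, untested list members and neighbouring genes were named outside that rule, after their values were seen. One gene under the rule is not reported here.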

Additional observations from a re-analysis of the deposited data

How the results depend on the processing

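PKP3 (log2 fold change -1.10 to -0.88), EPCAM (-0.55 to -0.46) and PERP (-0.39 to -0.27) fell in all 16 alternatives, and PKP2 passed in 0 of them. The number of junction genes that fell was 3 with total counts and with upper quartile scaling, 4 with DESeq2 and 6 with the flow cell term and with GC and length trends removed. The number that rose was 1 with total counts, upper quartile scaling, the flow cell term and the removal of GC and length trends. Leaving out 1 library at a time gave 3 to 6 that fell and 0 to 1 that rose. In those fits the log2 fold change of JUP ran from -0.0248 to 0.13, below 0 without MLL4WT replicate 3, and that of CDH1 from -0.0075 to 0.13, below 0 without MLL4KO replicate 2 and, at -0.0008, without MLL4WT replicate 2. The fits below 0 did not pass, JUP passed at 0.13 without MLL4WT replicate 1, and the cause of these turns was not tested. Total counts moved the median of all tested genes to 0.06. The number of catenins and adaptors that rose, 4 as reported, was 1 to 5 across the alternatives.

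The libraries share replicate numbers, but deviations of same-numbered libraries correlated at 0.02, 0.03 and -0.01, so the numbers were not taken to pair them. With a replicate block 5 junction genes fell and 0 rose, as without it, and over all genes 2689 rose and 3024 fell. Depth limits precision most in MLL4WT replicate 1. DSG2 and DSC2, whose falls were small, were the members that lost their call in some settings. Without MLL4WT replicate 1 both kept it (edgeR adjusted p = 0.00341 and 0.00396). Why the calls were lost elsewhere was not tested.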
